A study of Mus musculus with 8 samples.

Results

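The regions described here are the open chromatin peaks of resting macrophages that the HOMER annotation labels neither as promoter nor as ordinary intronic or intergenic DNA. They are the peaks that the HOMER annotation places in a coding exon, a 5' UTR, a 3' UTR, a transcription termination site (TTS) or a non-coding transcript, together with the intronic and intergenic peaks whose detailed annotation is a CpG island, here called intronic CpG and intergenic CpG peaks. They were taken from the peaks found at Veh in NCoR f/f bone marrow-derived macrophages (BMDMs), and number 1559 of the 15473 peaks of that set and of the 24867 peaks of the merged table. The classes hold 226 exon, 275 5' UTR, 99 3' UTR, 167 TTS, 83 non-coding, 468 intronic CpG and 241 intergenic CpG peaks. The other peaks of the Veh set are 7098 promoter, 3586 other intronic and 3148 other intergenic peaks, and 82 have no annotation.

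ATAC-seq, in which a transposase inserts adapters into accessible DNA, was performed in BMDMs from mice 8 to 12 wk old on the C57BL/6 background, after M-CSF culture and serum starvation. The 2 NCoR f/f libraries are from NCoR1 flox/flox cells, which carry the floxed allele without the LysM-Cre that deletes it in the knockout, treated with Veh for 6 h. A second table holds 6 libraries of WT BMDMs, 2 each for Veh, 6 h of KLA (Kdo2-lipid A, which activates TLR4), and KLA with RGFP966 (an HDAC3 inhibitor given from the start of serum starvation and named in the sample titles, whereas the treatment entry names KLA alone). Neither the labels nor the methods tell whether paired libraries represent different animals, so p-values measure only the spread between these samples, which may be technical.

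Tags in peaks numbered 372367 and 509741 for NCoR f/f replicates 1 and 2, and in WT between 116733 and 202523. The NCoR f/f and WT libraries differ in genotype, library date and depth, which cannot be told apart. Within the Veh set, the mean squared difference of the NCoR f/f libraries was 0.899 times that expected from counting error alone, and 1.37 times in the 9390 peaks with tags outside it. The Veh set was chosen for reproducibility between such libraries, and each WT pair was likewise closer within its own set (0.822 to 0.937) than outside it (1.20 to 1.48). Of 10 macrophage genes listed as a check, 5 (among them Cd14, Cd68, Mertk and Spi1) had a Veh peak within 2 kb of their start site, as against 0 of 5 in each of the lists for T cells, B cells, neutrophils and fibroblasts.

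CpG islands are stretches of GC-rich DNA that escape the loss of CpG seen elsewhere in mammalian genomes. Most annotated ones lie at promoters, and those that do not are often called orphan islands, some of which mark start sites missing from the gene models. A peak in a 5' UTR or a first exon usually lies just downstream of a start site, whereas peaks in 3' UTRs and at TTSs may be regulatory elements that happen to fall in a gene's end, or the promoter of a neighboring gene. In macrophages, distal regulatory elements are typically bound by PU.1, C/EBP and AP-1 factors, and CTCF binds at insulators and at many GC-rich sites.

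To give examples of motif matches in the classes, 30-base stretches of GRCm38 (the mm10 sequence) around an exact match are printed. They come from the most tagged peaks of a class with such a match and room for 30 bases around it. The matched letters are in capitals, and the strand is the one that reads the motif. A printed motif need not set its class apart. For example, PU.1 matches were in 5.42% of TTS peaks and 7.90% of all Veh peaks. The motifs were PU.1 (GAGGAAGT), AP-1 (TGANTCA), CTCF (AGNGGGCGC), the GC box bound by Sp factors (GGGGCGGGG) and YY1 (AAGATGGCG). A match is a match of letters and does not show binding. N stands for any base, so the AP-1 string also takes in strings such as TGAATCA beside TGACTCA. AP-1 shares by middle base were not counted. The 3' UTR and TTS peaks are represented by PU.1 and AP-1 matches.
Man2a1 3' UTR, chr17:64754277-64754306, minus strand, PU.1: agaggttatagGAGGAAGTggttttgttgt
Nkiras2 3' UTR, chr11:100626794-100626823, minus strand, PU.1: tggaacaggaaGAGGAAGTgaaacaactgg
Havcr2 3' UTR, chr11:46480672-46480701, plus strand, AP-1: tcaaggggaacTGACTCAgacaacttctcc
Hyal1 3' UTR, chr9:107579564-107579593, plus strand, AP-1: tagtcacatagTGAATCAgagtttaggaca
Syce1l TTS, chr8:113656251-113656280, plus strand, PU.1: gggtgtcagtgGAGGAAGTaccttgtcagt
TTS peak near Hjurp, chr1:88262545-88262574, plus strand, AP-1: actgttacagcTGACTCAcaagtactgcaa
The exon, CpG and 5' UTR peaks are represented by CTCF, GC box and YY1 matches.
Cacna1a exon, chr8:84639515-84639544, plus strand, CTCF: gcgagccgccAGGGGGCGCgcacgatcccg
Slc24a3 exon, chr2:145168211-145168240, plus strand, CTCF: gcctgccccgAGTGGGCGCtgcggctccag
Chd9 intronic CpG, chr8:90908179-90908208, plus strand, CTCF: cgctccggccAGAGGGCGCccggccccagc
Arid1b intronic CpG, chr17:5189968-5189997, minus strand, CTCF: agggacaggcAGAGGGCGCgggagggtttc
Intergenic CpG nearest Mex3b, chr7:82866112-82866141, plus strand, CTCF: agaagccaggAGGGGGCGCagttcgccttg
Intergenic CpG nearest Arhgap5, chr12:52503763-52503792, minus strand, CTCF: cgccggagggAGGGGGCGCgcgagcgcgcg
Aco1 5' UTR, chr4:40143373-40143402, minus strand, GC box: ctgcgggagaGGGGCGGGGcccgggcctca
Zhx1 5' UTR, chr15:58076180-58076209, minus strand, YY1: tctgaaatgcAAGATGGCGgcggcgaggcg

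The 7 classes differed little in the number of tags that a typical peak held. The 1559 peaks took 8.41% and 8.36% of the tags in peaks of the 2 NCoR f/f libraries. These shares are of the tags in all 24867 peaks of the merged table. They are not comparable with the members' 10.1% of the 15473 peaks of the Veh set. The median of the members was 16 tags in replicate 1 and 21 in replicate 2, as against 16 and 22 for the whole Veh set. Intergenic CpG and non-coding peaks stood at the high end, with medians of 19 and 25 tags and of 18 and 26 tags, next to 18 and 26 for promoter peaks. The 3' UTR peaks (14 and 19), TTS peaks (15 and 19) and exon peaks (15 and 18) lay near the other intronic (14 and 18) and other intergenic peaks (14 and 19), and the 5' UTR (16 and 22) and intronic CpG peaks (15 and 20) lay between. Within each class the quartiles spanned far more than the distance between classes, from 14 to 26 tags in replicate 1 for intergenic CpG peaks and from 11 to 20.2 for intronic CpG peaks. Peaks of a library are not replicates of a condition, so these class values are descriptions and were not tested. At least 16 tags in both libraries were reached by 62.7% of intergenic CpG, 61.4% of non-coding and 53.5% of 5' UTR peaks, but by 32.3% of 3' UTR peaks.

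**Figure D1:**
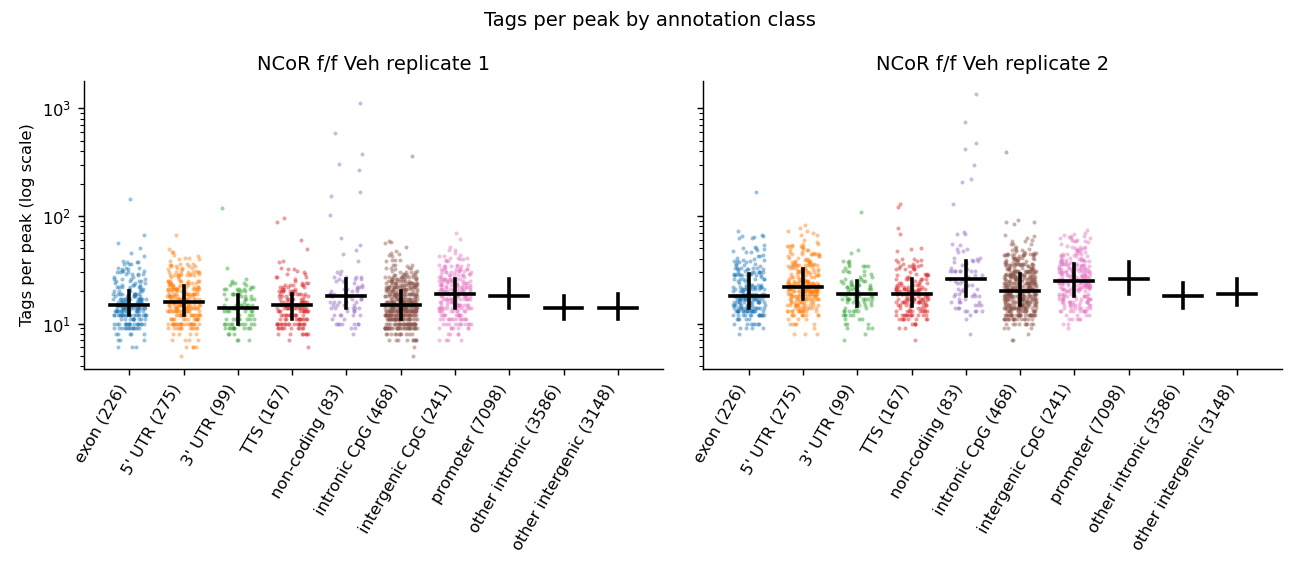
Tags per peak (log scale) for each class in the 2 NCoR f/f Veh libraries, with every member of the 7 classes as a point, the median as a horizontal bar and the quartiles as a vertical bar, and the number of peaks in parentheses (for the promoter, other intronic and other intergenic peaks the summary alone is drawn). Class medians lie between 14 and 19 tags in replicate 1 and between 18 and 26 in replicate 2, and a few non-coding peaks, up to 1122 and 1358 tags, stand far above the rest.

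Position relative to start sites separated the classes clearly. Of all 1559 members, 942 (60.4%) lay within 2 kb of the start site given in the table. The paper's methods class peaks that near a start site as promoter peaks, which is wider than the promoter label used here. Of the 5' UTR peaks, 93.8% lay within 2 kb of the start site given in the table, and 250 of 275 fell in the first exon. The intronic CpG peaks were close to this, with 83.3% within 2 kb and 413 of 468 in the first intron. Exon peaks were a mixture, with 99 of 226 in the first exon, 93 in an internal exon and 34 in the last of several. The 3' UTR, TTS and intergenic CpG peaks lay mostly away from the start sites of the table, with 11.1%, 36.5% and 16.6% within 2 kb and median distances of 12864, 4171 and 12254 bp. For 3' UTR peaks the gene with the nearest start site was often not the gene whose UTR held the peak. The host transcript was matched to a gene for all 99, and this gene differed from the nearest one for 54, likewise for 78 of the 163 TTS peaks with a matched host.

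Start sites of the GENCODE vM21 annotation, which lists more transcripts than the table, were used to ask how many CpG peaks were orphan only by the annotation. Of the 241 intergenic CpG peaks, 56 (23.2%) lay within 1 kb of the start of a protein-coding transcript and a further 38 (15.8%) within 1 kb of another kind of transcript, which left 147 (61.0%) with no start site in reach. Of the 468 intronic CpG peaks, 366 (78.2%) had a protein-coding start site within 1 kb, and 86 (18.4%) had none of either kind. The non-coding peaks had a protein-coding start site within 1 kb in 47.4% of cases. The intergenic CpG peaks beyond 1 kb held medians of 19 and 24 tags, and those within it 19.5 and 27. They also reached 16 tags in both libraries less often (58.5% as against 69.2%), held fewer tags per kb (134.6 and 134.3 as against 159.4 and 164.0), and were more often in the Veh set alone (15.0% as against 7.45%).

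**Figure D2:**
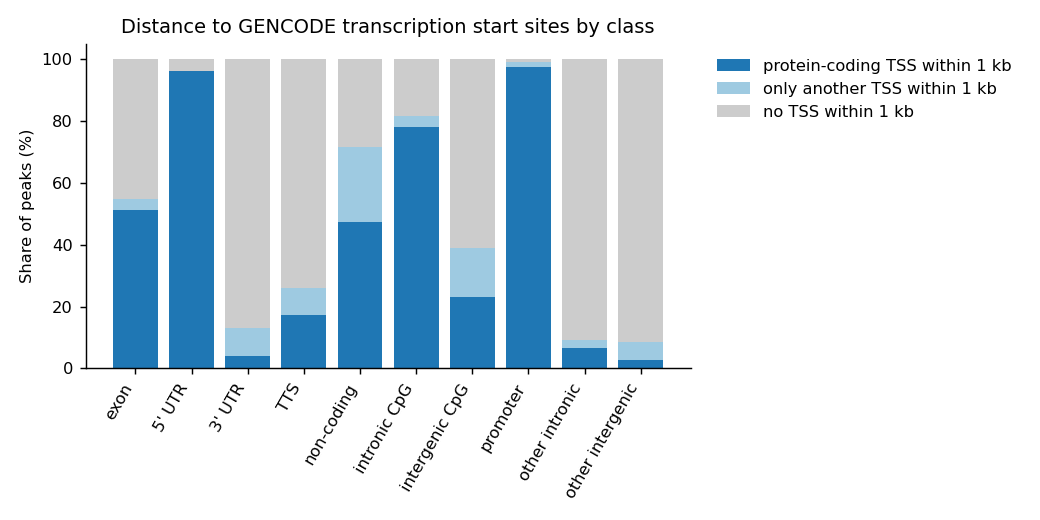
Share of the peaks of each class (%) that lie within 1 kb of a GENCODE protein-coding start site (dark), within 1 kb of another start site only (light) or beyond 1 kb of any (gray). The 5' UTR and intronic CpG bars are mostly dark (96.4% and 78.2%), and the 3' UTR, TTS and intergenic CpG bars mostly gray (86.9%, 74.1% and 61.0%).

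Base composition split the classes into a CpG-rich and a CpG-poor group. CpG islands define the intronic and intergenic CpG classes, so their composition follows from the rule, with median GC contents of 70% and 69% in the central 200 bp and CpG observed/expected ratios of 0.844 and 0.842. The 5' UTR peaks, which were not chosen on CpG, had a median GC content of 68.5% and a ratio of 0.848, next to 66.5% and 0.846 for promoter peaks. The 3' UTR peaks (53% and 0.265) and TTS peaks (55.2% and 0.363) lay near the other intronic peaks (51.5% and 0.216). Exon peaks divided by rank, with 70% and 0.910 in first exons and 60.5% and 0.502 in later ones. TTS peaks divided in the same way by distance, with 58.5% and 0.625 for the 61 peaks within 2 kb of a start site and 53% and 0.264 for those beyond it.

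**Figure D3:**
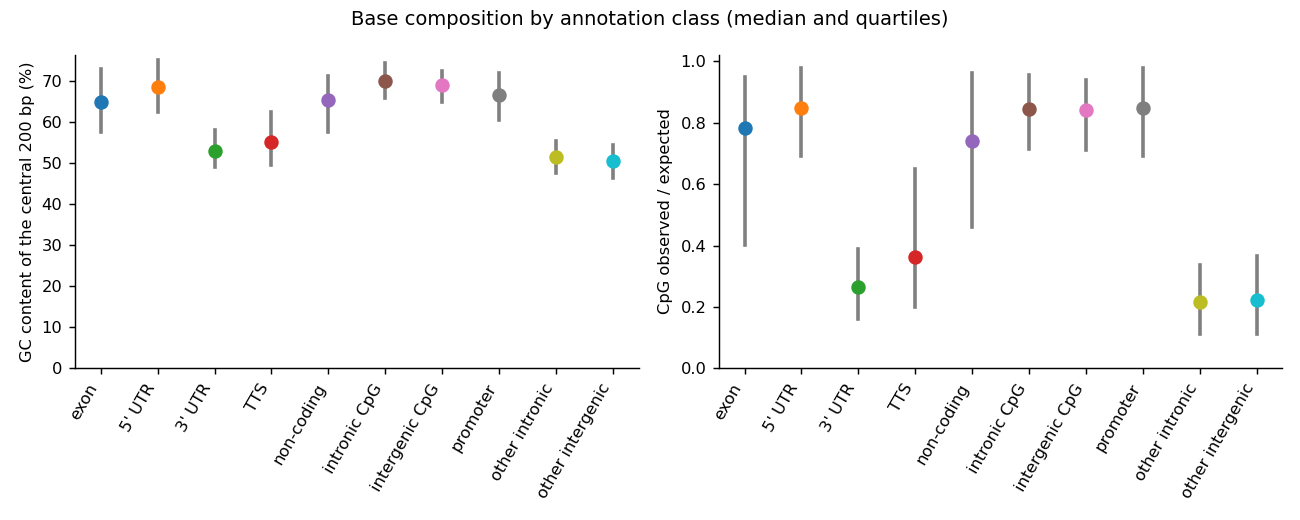
Median GC content (%, left) and CpG observed/expected ratio (right) of the central 200 bp of each peak by class, with quartiles as bars. The 3' UTR and TTS medians (53% and 55.2% GC) sit beside the other distal classes, and the exon, 5' UTR, non-coding and CpG medians (65% to 70%) beside promoters.

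The AP-1 matches, with any middle base, followed the same division in most classes, and the PU.1 and C/EBP matches did so in part. An AP-1 match was present in 21 of 99 3' UTR peaks (21.2%, 95% Wilson interval 14.3 to 30.3) and in 29 of 166 TTS peaks (17.5%, 12.45 to 23.96), but in 2.91% of 5' UTR, 3.21% of intronic CpG and 2.90% of intergenic CpG peaks, next to 13.5% of all Veh peaks, 3.10% of promoter peaks and 26.0% of other intronic peaks. The non-coding and exon classes, CpG-rich by their medians, did not follow it closely. An AP-1 match was in 9 of 78 non-coding peaks (11.5%, 6.19 to 20.5) and 15 of 226 exon peaks (6.64%, 4.06 to 10.7). PU.1, the factor that specifies the myeloid lineage, had a match in 11.1% of 3' UTR peaks (6.32 to 18.8) and 5.42% of TTS peaks (2.88 to 9.98), as against 2.14% and 2.07% in the CpG classes and 7.90% of all Veh peaks. A C/EBP match (TTGCNNAA) was present in 13.9% of TTS peaks and 11.1% of 3' UTR peaks, and in 3.73% of intergenic CpG peaks. The intervals cover counting error only, and no test was made between classes. The part of base composition in these shares was not tested.

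First and later exons were again unlike. None of the 99 first-exon peaks held an AP-1 or a PU.1 match, for which the upper bound of the Wilson interval was 3.74%, whereas 15 of the 127 later-exon peaks held an AP-1 match (11.8%, 7.29 to 18.6) and 13 held a PU.1 match (10.2%, 6.08 to 16.7). For TTS peaks, 24 of 105 beyond 2 kb of a start site held an AP-1 match (22.9%) and 5 of 61 within it (8.20%). Peaks in later exons and at distant TTSs thus carried these strings at shares between those of promoter peaks and of other distal peaks.

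The CTCF string was most often found in GC-rich classes. It was present in 6 of 78 non-coding peaks (7.69%, 3.57 to 15.8), 33 of 468 intronic CpG peaks (7.05%, 5.07 to 9.74), 14 of 241 intergenic CpG peaks (5.81%, 3.49 to 9.51) and 11 of 226 exon peaks (4.87%, 2.74 to 8.50), with 2.77% in all Veh peaks, 4.26% in promoter peaks and 0.475% in other intronic peaks. It was in 9 of the 86 intronic CpG peaks beyond 1 kb of a GENCODE start site (10.5%, 5.60 to 18.7) and in 0 of 99 3' UTR peaks (upper bound 3.74%). The string is GC-rich itself, so its share moves with base composition, whose part in these shares was not tested. The GC box was present in 16.03% of intronic CpG, 16.18% of intergenic CpG and 14.2% of 5' UTR peaks, below the 22.4% of promoter peaks, and in 1.01% of 3' UTR peaks. The CCAAT box (CCAAT), a promoter element bound by NF-Y, was found in 27.4% of intergenic CpG, 21.2% of intronic CpG and 15.6% of 5' UTR peaks, with 37.7% in promoter peaks. The PU.1 string and the general ETS string (CCGGAAGT) share their last letters, and the latter was found in 3.15% of the members and 7.41% of promoter peaks.

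**Figure D4:**
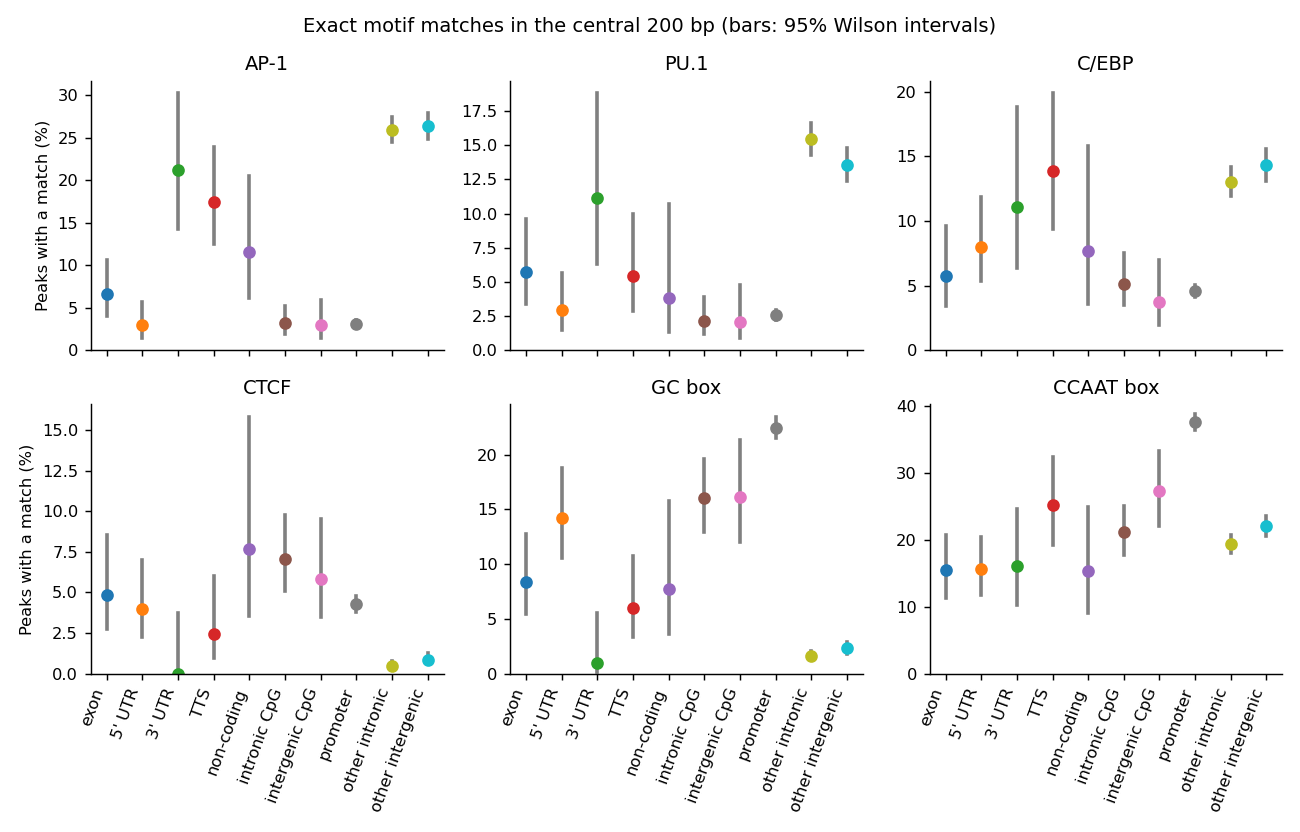
Share of peaks (%) with an exact match on either strand in the central 200 bp, by class, for 6 of the 11 motifs searched, with 95% Wilson intervals as bars. AP-1 is found in 21.2% of 3' UTR and 17.5% of TTS peaks and in about 3% of 5' UTR, CpG and promoter peaks, and CTCF in 7.05% of intronic CpG peaks and in none of the 3' UTR peaks.

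The most tagged peak of the Veh set belonged to the non-coding class. All 8 Veh peaks at Rn45s, the 45S ribosomal RNA transcript, are members, and they made up 5 of the 10 most tagged peaks of the Veh set. Together they took 3085 and 3849 tags, or 0.829% and 0.755% of the tags in peaks. The highest of them, chr17:39845060-39845915, held 1122 and 1358 tags, the next, chr17:39843083-39843639, held 593 and 744, and the lowest, chr17:39846954-39847436, held 102 and 129. Ribosomal DNA is repeated many times in the genome but is represented here by 1 annotated transcript, so a tag count at this place is not the accessibility of 1 locus. In the WT libraries the 7 peaks given to Rn45s took between 1.01% and 1.48% of the tags in peaks. Without Rn45s, the median of the non-coding class was 17 and 24 tags, close to the 18 and 26 of the whole class.

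A cluster of wide peaks on chromosome 1 supplied the leading exon, 3' UTR and TTS peaks. It spans chr1:88250996-88270178 at Hjurp, which encodes the chaperone of the centromeric histone CENP-A, and the neighboring Mroh2a, and was picked out after its values were seen. Of its 18 Veh peaks, 11 are members, and it took 0.239% and 0.198% of the tags in peaks. Its exon peak in Mroh2a, chr1:88254561-88256688, was 2128 bp wide with 143 and 167 tags, whereas the median width of the exon class was 334 bp. Next to it, the TTS peak of Hjurp, chr1:88257051-88258700, held 96 and 121 tags and the 3' UTR peak chr1:88258784-88260483 held 119 and 110. The CpG ratios of these 3 peaks were 0.063, 0.13 and 0.20, so they were unlike the CpG-rich exon peaks. In the 6 WT libraries the 14 peaks of the region took between 0.103% and 0.157% of the tags in peaks.

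Outside these places, the leading peaks lay at start sites and in first introns. In the 5' UTR class the most tagged peak was that of Mad2l1, a spindle checkpoint protein, at chr6:66535127-66535531 with 66 and 77 tags (164 ± 18.5 tags per 1000000 tags in peaks, SD, n = 2). It was followed by Zbtb21, a zinc finger protein, with 46 and 82 tags, Rasa1, a Ras GTPase-activating protein, with 49 and 73, Pex16, a peroxisome biogenesis factor, with 46 and 73, and Ppp2r3a, a regulatory subunit of the phosphatase PP2A, with 43 and 69. All 5 were in the first exon and listed in all 4 peak sets of the table (Veh and KLA in NCoR f/f and in knockout BMDMs). The replicates were far enough apart that the order among these 5 is not fixed.

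Among intronic CpG peaks, Sfi1, which encodes a centrin-binding protein, stood apart at chr11:3192947-3193536 with 358 and 390 tags (863 ± 139 per 1000000). Kat6b, a histone acetyltransferase, followed with 59 and 88 tags, Zbtb2, a zinc finger protein, with 57 and 85, and Klf10, a TGFβ-inducible transcription factor, with 51 and 91. Among intronic CpG peaks with no GENCODE start within 1 kb, those with the most tags were in Arid1b, a subunit of the BAF remodeling complex (56 and 43 tags), Prdm2 (38 and 65), Ywhaz, a 14-3-3 protein (35 and 50), and Nfia, a transcription factor (31 and 45), which were listed for their tags after the values were seen.

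Among intergenic CpG peaks, the 5 with the most tags were nearest Cr2 (61 and 74 tags), Rpp21 (70 and 60), Larp1b (51 and 67), Rxfp2 (48 and 68) and Zfp958 (48 and 65). The peak at Larp1b lay 246 bp from a GENCODE start of that gene, whereas for the other peaks the closest GENCODE start belonged to a predicted gene model. The peak nearest Rxfp2, chr5:150118402-150118696, lay 35754 bp from any GENCODE start and held 131 ± 3.2 tags per 1000000. Beyond 1 kb of a start, the class also held peaks upstream of Elovl5, a fatty acid elongase (45 and 65 tags), of Wnt7b, a secreted ligand (41 and 62), and of Slc38a2, an amino acid transporter (39 and 59).

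Outside the chromosome 1 cluster, several leading TTS and 3' UTR peaks had another gene than their host as the nearest. The peak at the TTS of Bbs7 lay 35 bp from the GENCODE start of Ccna2, which encodes cyclin A2, and held 49 and 78 tags. The TTS peak of Ssrp1, a subunit of the histone chaperone FACT, held 38 and 49 tags. The 3' UTR peaks were lower, with 23 and 45 tags in Kdr, the VEGF receptor 2, 19 and 48 in Man2a1, a Golgi mannosidase, and 24 and 38 in Atf6, a sensor of endoplasmic reticulum stress. In the exon class, the first exons of Zfp446 (56 and 73 tags) and Srd5a3, a polyprenol reductase (42 and 63), and the second exon of Angptl6, a secreted protein (38 and 65), came after the cluster.

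Genes of the 12 lists were scattered over the classes. Of the macrophage identity genes, 4 of 18 had a member, with 16 having any Veh peak, and the members included intergenic CpG peaks far upstream of Klf4 (18 and 26 tags) and near Cebpa (13 and 16), an exon peak in Klf4 (9 and 13) and a 5' UTR peak in Runx1 (8 and 12). Of the 32 TLR4, NFkB and AP-1 genes, 7 had a member. These held 10 of the 64 Veh peaks of the list (15.6%, next to 10.1% of all Veh peaks and to 17.9% for developmental regulators, 15.4% for histone genes and 14.2% for zinc finger genes), of which 6 were intergenic CpG peaks. The one nearest Jun (32 and 38 tags) lay 109198 bp upstream of it, and 9680 bp from the GENCODE start of Gm28096. The 3 nearest Fos (18 and 33, 19 and 25, and 14 and 28) lay 18437 and 1628 bp upstream and 12219 bp downstream of its start. A Fosb intronic CpG peak (17 and 24) and an Nfkb1 5' UTR peak (19 and 21) were also among the 10.

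The other lists ranged from 1 to 44 members. There was 1 for NCoR, HDAC3 and coregulators (Sin3a intronic CpG, 19 and 28 tags) and 1 for cytokines and effectors (nearest Ocstamp, in the 3' UTR of Slc13a3, 15 and 17). There were 2 each for LXR and SREBP lipid genes (nearest Scd2, 25 and 34, and Fasn, 15 and 23), for the lysosome (the cathepsins Ctsb, 27 and 44, and Ctsl, 19 and 23) and for imprinted genes (Herc3, 18 and 27, and Inpp5f, 12 and 13). Developmental regulators had 15 members at 14 genes, with the most tags nearest Wnt7b, Foxo3 (38 and 60) and Foxk1 (27 and 48). Ribosomal protein symbols had 5, of which 2 are nearest the kinase gene Rps6ka1, which shares the prefix alone. Histone genes had 4, of which 3 were TTS peaks, such as that of Hist1h1c (23 and 32). Zinc finger genes had 44 at 39 genes, with 19 intronic CpG and 11 5' UTR peaks, and microRNA genes had 35, with 16 TTS and 13 intergenic CpG peaks, such as those nearest Mir30a (40 and 64) and Mir17 (35 and 58).

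The peak sets give a coarse view of other conditions, in NCoR f/f cells with KLA and in knockout (NKO) cells with Veh or KLA, whose libraries were not analysed here. Intergenic CpG peaks were listed again with 80.5% in the NCoR f/f KLA set (75.03 to 85.01), 51.04% in the NKO Veh set (44.8 to 57.3) and 71.8% in the NKO KLA set (65.8 to 77.1). Promoter peaks stood higher in each set, at 84.3%, 55.1% and 72.9%, and non-coding peaks at 74.7%, 51.8% and 62.7%. The TTS peaks were at 61.7%, 25.7% and 49.1%, and the 3' UTR peaks at 60.6%, 38.4% and 52.5%. Exon peaks were at 62.8%, 34.1% and 47.8%, 5' UTR peaks at 68.4%, 43.6% and 59.3%, and intronic CpG peaks at 67.3%, 34.4% and 50.2%. All members together stood at 68.25%, 38.8% and 55.5%, and all Veh peaks at 74.5%, 44.65% and 63.9%. Exon peaks were found in the Veh set alone in 31.4% of cases (25.7 to 37.7), and intergenic CpG peaks in 12.0% (8.51 to 16.8). The part of tag depth in these shares was not tested.

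In the WT table, 316 of the 1559 members (20.3%) overlapped a peak of the WT Veh set, as against 29.0% of all NCoR f/f Veh peaks. The non-coding class stood highest with 38.6% (28.8 to 49.3), followed by intergenic CpG with 30.3% (24.8 to 36.4) and 5' UTR with 21.1% (16.7 to 26.3), and exon peaks lowest with 12.8% (9.09 to 17.8). Counting only members with at least 16 tags in both NCoR f/f libraries, 37.4% had a WT Veh counterpart. The same filter was not applied to all NCoR f/f Veh peaks, so this share cannot be set against their 29.0%. The WT Veh libraries held fewer tags in peaks than the NCoR f/f libraries, and genotype, library date and depth cannot be told apart here.

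Few of the members were called for KLA against Veh in WT BMDMs. Members keep their NCoR f/f class below, although a few have another annotation in the WT table (promoter for the Rassf2 and Tnfrsf1b peaks, for example and intergenic for that of Rin2). A total of 579 members overlapped any WT peak, and 581 of the 9698 WT peaks overlapped a member by at least 1 bp. By edgeR's quasi-likelihood test over the whole table (Benjamini-Hochberg adjusted p under 0.05 and over 2-fold), 7 of these 581 peaks gained tags with KLA (1.20%) and 5 lost them (0.861%), where all WT peaks gained in 3.3% and lost in 1.73% of cases. The 7589 WT peaks in the NCoR f/f Veh set, from which members are drawn, gained in 0.988% and lost in 1.87% of cases. The members' shares rest on 7 and 5 calls, were not tested against these, and are no result about the members. With 2 libraries per condition, few calls do not show that few peaks changed. The median log2 fold change was -0.04 for the members and -0.05 for those 7589. An unadjusted edgeR p under 0.05 was found for 14.1% of the members, 14.9% of those 7589 and 19.5% of all WT peaks. DESeq2 called 0 of all 9698 peaks, with 5.88% at an unadjusted p under 0.05, so its 0 members are no result about them. Limma-voom, added after the data were seen, called 3 members, which were those of Socs1 (gained), Rin2 and Nrp1 (lost). The count fell to 1 without KLA replicate 1, to 4 without either Veh library and to 7 without KLA + RGFP966 replicate 2. It came to 4, with 2 gained and 2 lost, when libraries were scaled to all their tags, and with loess offsets to 6 gained and 11 lost.

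The 3 gained peaks with the largest fold rested on few tags at Veh. A peak in exon 3 of the non-coding transcript 3930402G23Rik, chr8:10924378-10924697, had 3 and 2 tags at Veh, 23 and 9 with KLA, and 23 and 17 with KLA + RGFP966. Its log2 fold change for KLA was 2.35 ± 0.57 (SE, edgeR adjusted p = 0.0077), and the ratio of scaled tags was 5.27 with an exact counting interval of 2.04 to 17.3. An intronic CpG peak of Sfxn5, a mitochondrial carrier of the sideroflexin family, went from 2 and 3 tags to 17 and 8 with KLA (ratio 4.12, 1.55 to 13.8, edgeR adjusted p = 0.0263) and held 9 and 8 with KLA + RGFP966. A peak at the TTS of Dnajc15, a mitochondrial co-chaperone, with Gm1587 as the nearest gene, went from 4 and 2 tags to 18 and 9 (ratio 3.70, 1.498 to 10.97, edgeR adjusted p = 0.0339). In each of these the KLA libraries lay above both Veh libraries after scaling. The compared groups were likewise apart in every called member, so this adds no support. The calls did not hold when Veh replicate 1 or 2 was left out.

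The gained peak best supported by tags was an intronic CpG peak 250 bp from the start of Socs1, which encodes an inhibitor of JAK-STAT signaling, and was singled out after its values were seen. At chr16:10784997-10785575 it held 7 and 7 tags at Veh, 33 and 28 with KLA, and 28 and 28 with KLA + RGFP966. The log2 fold change for KLA was 1.83 ± 0.38 (edgeR adjusted p = 0.00219), and the call held in each of 6 fits that left out 1 WT library. The same location had 39 and 49 tags in the NCoR f/f Veh libraries, of 372367 and 509741 tags in peaks. The 7 and 7 tags of the WT Veh libraries were of 128949 and 121106. Genotype, library date and depth differ between them, and the part of each in this difference was not tested. With KLA + RGFP966 against KLA its log2 fold change was -0.51 ± 0.27 and did not pass the test (edgeR adjusted p = 0.40).

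The 3 lost peaks with the largest fold belonged to different classes. A TTS peak of Rin2, a Rab5 exchange factor, with Naa20 as the nearest gene, had 28 and 19 tags at Veh, 10 and 8 with KLA and 6 and 13 with KLA + RGFP966 (chr2:145888468-145888820; log2 fold change -1.65 ± 0.38 for KLA, edgeR adjusted p = 0.00498). A 5' UTR peak of Rassf2, a Ras-association domain protein, had 15 and 14 tags at Veh, 8 and 4 with KLA, and 11 and 19 with KLA + RGFP966 (-1.53 ± 0.46, edgeR adjusted p = 0.0375). An intergenic CpG peak upstream of Nrp1, the coreceptor neuropilin-1, had 22 and 32 tags at Veh, 15 and 9 with KLA, and 21 and 26 with KLA + RGFP966 (-1.44 ± 0.34, edgeR adjusted p = 0.00705). The Veh and KLA libraries did not overlap in any of the 3 after scaling, which was so for every called member and adds no support. Of 6 fits that left out 1 WT library, the Rin2 and Nrp1 calls held in 4 each, and the Rassf2 call in 2, being lost without any of the Veh or KLA libraries.

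**Figure D5:**
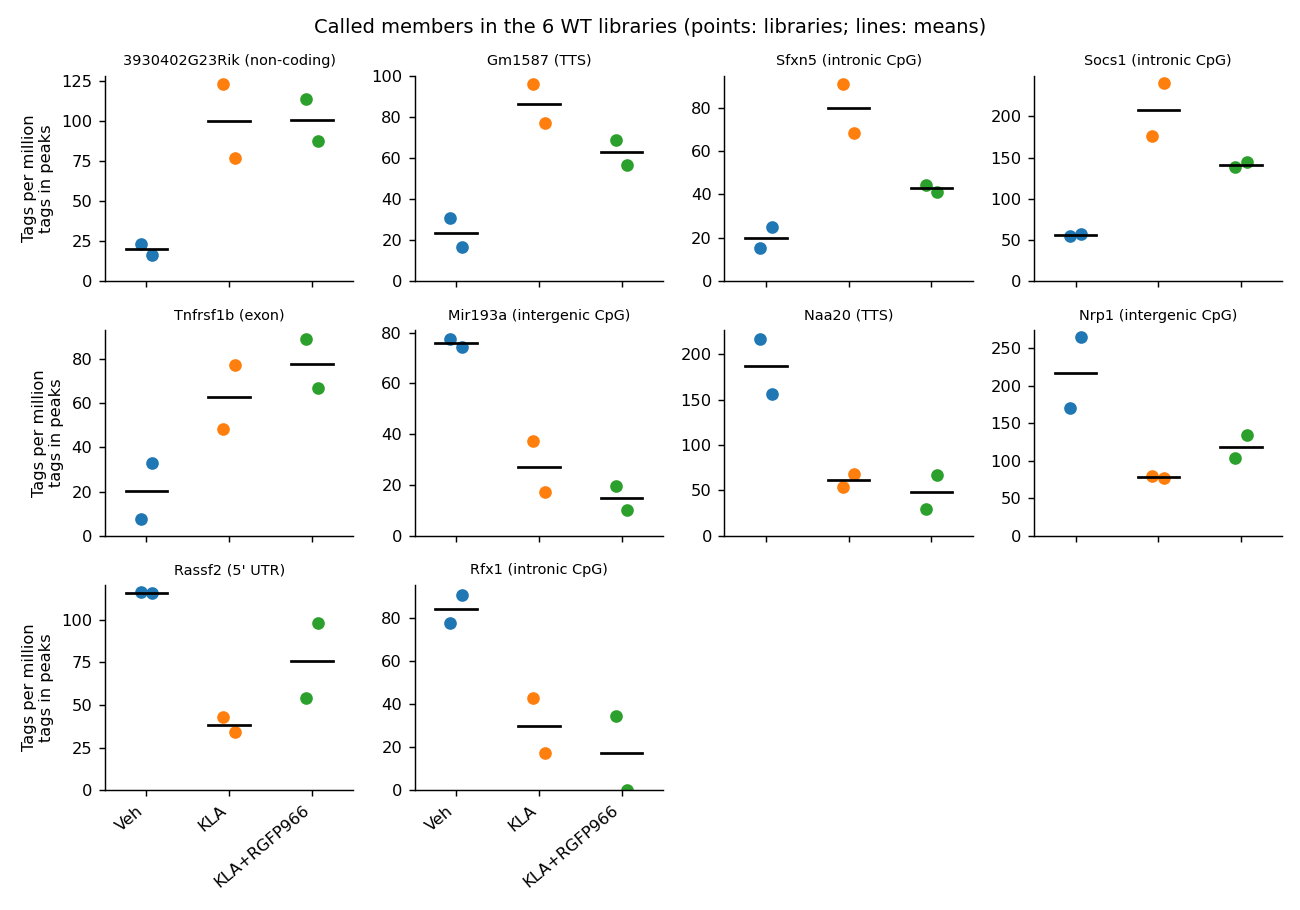
Tags per 1000000 tags in peaks in the 6 WT libraries (points, 2 per condition, with lines at the mean) for 10 called members, named by nearest gene and class, taken from the 3 gained and 3 lost with the largest fold for KLA against Veh and for KLA + RGFP966 against Veh, and Socs1. Socs1 has 7 and 7 tags at Veh and 33 and 28 with KLA, and Rfx1 has 10 and 11 at Veh and 7 and 0 with KLA + RGFP966.

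No member was called when KLA + RGFP966 was set against KLA. There edgeR called 0 of the 581 peaks in either direction, where 0.237% of all WT peaks gained and 0.103% lost. Of the 7589 WT peaks in the NCoR f/f Veh set, 0.105% gained and 0.0395% lost. The 0 calls are near these shares and are no result about the members. DESeq2 called 0 of all peaks and limma-voom 0 members. An unadjusted edgeR p under 0.05 was found for 58 members (9.98%), 11.3% of the WT peaks in the NCoR f/f Veh set and 13.8% of all WT peaks. The median log2 fold change of the members was 0.03, the same as for all peaks (0.03). When libraries were scaled to all their tags, the median of all peaks moved to 0.21 and that of the members to 0.19, so a shared shift of this size depends on the scaling.

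Against Veh, the combined treatment gained 7 members (1.20%) and lost 14 (2.41%), with 6.89% and 2.99% of all WT peaks gained and lost, and 2.03% and 3.15% of those in the NCoR f/f Veh set. With scaling to all tags, 5 were gained and 5 lost, and the median log2 fold change moved from 0.04 to 0.14 for all peaks and from -0.08 to 0.03 for the members, a change of sign. DESeq2 called 0 of all peaks. Limma-voom called 0 gained and 14 lost members, 13 of them among the 21, so that none of the 7 gained calls was made by it. The count of 21 fell to 9 and 7 without KLA + RGFP966 replicate 1 and 2, and to 9 and 11 without Veh replicate 1 and 2. The comparison shares its Veh libraries with that for KLA, so peaks called in both are not independent evidence.

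The gained peaks with the largest fold included the 3930402G23Rik peak and an exon peak of Tnfrsf1b, which encodes TNF receptor 2. The Tnfrsf1b peak, chr4:145246718-145247013, held 1 and 4 tags at Veh, 9 and 9 with KLA, and 18 and 13 with KLA + RGFP966 (ratio to Veh 3.91, 1.51 to 12.9, edgeR adjusted p = 0.0238). After scaling, the KLA and KLA + RGFP966 libraries lay above both Veh libraries and overlapped each other. For KLA + RGFP966, separation from Veh was seen in every member called in this comparison.

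Among the lost peaks, an intergenic CpG peak upstream of Mir193a, a microRNA gene, held 10 and 9 tags at Veh, 7 and 2 with KLA, and 4 and 2 with KLA + RGFP966 (log2 fold change against Veh -2.27 ± 0.53, edgeR adjusted p = 0.00509). An intronic CpG peak of Rfx1, a winged-helix transcription factor, held 10 and 11, 8 and 2, and 7 and 0 tags (-2.20 ± 0.56, edgeR adjusted p = 0.00726). The Rin2 TTS peak near Naa20 had the smallest adjusted p of the members in this comparison (-1.96 ± 0.37, edgeR adjusted p = 0.00047) and was called in each of 6 fits that left out 1 WT library. The 4 lost exon peaks of 69 (5.80%, next to 2.99% of all WT peaks and 5.30% of other intronic peaks), listed here after their values were seen, were in Cpeb2, a regulator of mRNA polyadenylation, Chd7, a chromatin remodeler, and exons whose nearest genes were Gsg1 and Gpsm3. At Veh and then with KLA + RGFP966, tags went from 34 and 18 to 12 and 22 for Cpeb2, from 15 and 22 to 12 and 14 for Chd7, from 23 and 16 to 9 and 13 for Gsg1, and from 12 and 12 to 8 and 6 for Gpsm3. In raw tags Cpeb2 overlapped between the groups, and after scaling it did not, as was so for every called member. Of the 6 fits with 1 library left out, the calls held in 4 for Cpeb2 and Gsg1, 3 for Chd7 and 2 for Gpsm3.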

How the data were processed

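The authors used Bowtie2 (mm10) and HOMER on single-end ATAC-seq reads, merged the IDR peaks of each comparison and deposited raw tag counts per peak and library, with at most 3 tags per base position and no depth adjustment. Versions are not given in the sources used here. Members and gene lists were chosen with earlier results of these data known. Named peaks are, per class, the 5 with the most tags per 1000000 tags in peaks, and per WT contrast the 3 gained and 3 lost members with the largest fold. The quasi-likelihood test of edgeR (glmQLFit, glmQLFTest; version 4.0.16, R 4.3.3) was applied to WT tags over 9698 peaks with at least 4 tags in 1 sample, scaled to tags in peaks, 6 libraries in 1 model. DESeq2 1.42.0 was an alternative, and limma-voom (limma 3.58.1) one added after the data were seen. edgeR was tested on simulated data. Sequence, GENCODE vM21 (basic) start sites and motif strings (both strands) were read from GRCm38 at 1553 members on chromosomes 1 to 19, X and Y, with Python 3.11.15, and base strings of 30 letters were counted over the genome for uniqueness. Hosts were matched through RefSeq transcripts. Wilson intervals (95%) cover counting error only. ChIP-seq and RNA-seq were not analysed here. A few items that these rules would name are not reported here.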

Additional observations from a re-analysis of the deposited data

How the results depend on the processing

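The 2 libraries per condition limit every call. DESeq2 called 0 members for KLA and 0 for KLA + RGFP966 against Veh, as it did for all 9698 peaks. Its dispersion estimate was at the floor for 87.7% of peaks and its final dispersion had a median of 0.125, and for KLA + RGFP966 against KLA 1.49% of all peaks had an unadjusted p under 0.05, so it sets no limit particular to the members. Limma-voom, added after the data were seen, called 3 for KLA and 0 gained and 14 lost for KLA + RGFP966 against Veh. With scaling to all tags the counts were 4 and 10, with loess offsets 1 for KLA + RGFP966 against KLA, and with 1 library left out they ranged from 1 to 8, from 0 to 0 and from 7 to 23, respectively for KLA against Veh, KLA + RGFP966 against KLA and KLA + RGFP966 against Veh. The replicate numbers did not pair the samples (correlations of deviations 0.018, 0.018 and 0.023), and the fit with the replicate block called 12, 0 and 25 members. TMM factors, no filter, at least 16 tags, the 4 libraries of a comparison alone, a fold of 1.5 and an overlap of 50% kept each count within 1.5 times. The members' median relative to all Veh peaks went from 0.977 to 0.912 per kb and stayed between 0.955 and 1 in single libraries. The WT Veh share was 17.4% at 50% overlap and 37.4% at 16 tags or more. GC content was 66.2% and the CpG ratio 0.775 over whole peaks, and 68% and 0.819 at 16 tags or more. In 100 bp and in whole peaks, the members' motif shares were 2.00% and 8.24% for CTCF, 2.06% and 5.60% for PU.1, 3.93% and 9.47% for AP-1, 3.73% and 10.8% for C/EBP, 1.87% and 4.70% for ETS, 0.386% and 2.51% for NRF1, 0.644% and 3.15% for YY1, 7.60% and 20.0% for the GC box, 2.58% and 10.3% for the E-box, 0.708% and 2.12% for CRE, and 12.7% and 28.3% for the CCAAT box, which follows from the length searched.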

Other observations

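A few members lay in sequence that occurs more than once in the genome assembly. In 5 of the 1553 members with sequence, fewer than 50% of the 30-letter strings were unique in the assembly. Among these was the Rn45s peak chr17:39846954-39847436, at 34%. The other Rn45s peaks had from 77.4% to 100% unique strings, although ribosomal DNA is repeated many times. The count therefore cannot see repeats that the assembly holds in fewer copies, and more members may lie in such sequence. A further 6 members lay on sequences outside chromosomes 1 to 19, X and Y, and their sequence was not used here. How such places affect their tag counts was not tested.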
